A study of Mus musculus with 6 samples.

Results

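Peroxiredoxins and the thioredoxin system were examined as a set of 10 genes chosen by symbol: the 6 peroxiredoxins Prdx1 to Prdx6, the thioredoxins Txn1 and Txn2, the thioredoxin reductase Txnrd1 and the sulfiredoxin Srxn1. The genes were chosen with earlier results of these data known. They are 10 of the 55401 genes listed in the deposited count table, each was found once, and all 10 passed the filter on low counts. The study measured RNA in 3 samples of wild-type mouse cells treated with neutrophil extracellular traps (NETs), which are DNA fibres carrying granule proteins that neutrophils cast out, and in 3 samples of untreated wild-type control cells. No agent other than NETs is named for either group, and the amount and duration of the treatment are not given. The labels call the cells BMDM (bone marrow-derived macrophages in common use), but the titles read BV2, a microglial cell line of the mouse, so which cells they were cannot be told apart from the labels. Whether a group's 3 samples are separate cultures is not stated. The p-values therefore rest on a spread that may be technical.

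Peroxiredoxins are enzymes that reduce hydrogen peroxide and other peroxides with a reactive cysteine. In most of them the oxidised cysteine is restored by thioredoxin, which is in turn restored by thioredoxin reductase at the expense of NADPH. A peroxiredoxin cysteine oxidised beyond that cycle can be rescued by sulfiredoxin. Several of these genes are known targets of NRF2, the transcription factor that answers oxidants and electrophiles in macrophages as in many other cells, through a promoter sequence called the antioxidant response element.

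The reactive cysteine is the feature that the peroxiredoxins share, and the coding sequences around its codon show how close the genes are there. The stretches below are 36 bases long, come from the GENCODE M21 transcripts, read 5′ to 3′, and have the cysteine codon in capitals. Its number, counted from the start codon, is 52 in Prdx1, 51 in Prdx2, 109 in Prdx3, 127 in Prdx4, 96 in Prdx5 and 47 in Prdx6.
Prdx1: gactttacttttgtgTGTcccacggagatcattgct
Prdx2: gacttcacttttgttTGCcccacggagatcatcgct
Prdx3: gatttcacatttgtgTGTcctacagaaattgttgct
Prdx4: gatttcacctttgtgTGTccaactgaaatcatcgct
Prdx5: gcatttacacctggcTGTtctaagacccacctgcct
Prdx6: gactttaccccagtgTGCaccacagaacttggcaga

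All libraries were deep, with 39994613 to 43686531 counted reads in the NETs-treated samples and 41830940 to 44274445 in the control samples. Values per gene are given in CPM (gene counts brought to a common library size by edgeR, after trimmed-mean scaling), and a gene is called higher or lower where edgeR's quasi-likelihood test gave a Benjamini-Hochberg adjusted p under 0.05 over all 15272 genes tested. The groups differed in a large part of the transcriptome: 52.7% of the tested genes were called, and 62.4% had groups that did not overlap. All 8 macrophage markers passed the filter on low counts, 2 of them higher and 6 lower, with a summed level of 10250 to 10540 CPM in NETs-treated and 5639 to 5812 CPM in control samples. Most of that sum was Cd14 (5442 CPM in NETs-treated, 691 CPM in control cells) and Lyz2 (3526 and 2978 CPM in the same order), whereas Mertk (4.86 and 33.5 CPM) and Fcgr1 (6.96 and 35.3 CPM) were low in NETs-treated cells. Of 9 microglia markers 6 passed the filter, 1 was higher, 4 were lower and Sall1 was at 0 in every library. The summed level of the 9 markers was 202.5 to 226.4 CPM in NETs-treated and 530.7 to 558.6 CPM in control samples. The log2 fold changes of the 6 tested ran from -4.22 to 1.80, with a median of -1.30. Tmem119, unlike the 4 called lower, was higher on average with NETs, though low in both groups. It stood at 5.04 ± 0.459 CPM in NETs-treated and 1.44 ± 0.563 CPM in control samples (SD, n = 3 each). Of 12 neutrophil markers, which could come with the NETs preparation, 3 passed the filter with 1 higher and 1 lower, 7 were at 0 in every library (S100a9, Mpo, Ly6g, Ngp, Ltf, Retnlg and Ctsg), and the summed level was 10.2 to 15.7 CPM in NETs-treated samples against 4.78 to 6.85 CPM in controls. S100a8 was the higher one, at 11.7 CPM in NETs-treated and 2.68 CPM in control cells, and Prtn3 the lower one, at 0.209 and 1.26 CPM in the same order. None of the 6 lymphocyte or 6 fibroblast markers passed the filter. The part of these markers in the members' values was not tested. These are bulk samples, in which fewer cells of a type and less RNA per cell cannot be told apart.

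Of the 10 genes, 7 were called higher in NETs-treated cells, none was called lower, and 3 did not pass the test. The set was chosen with earlier results of these data known, and its count was not tested against the shares over all genes. Among all tested genes 25.5% were called higher and 27.2% lower. Abundant genes were called higher more often than that, with 40.2% higher and 26.6% lower among the 3086 genes at least as abundant as Srxn1, the member with the lowest mean CPM over all 6 libraries. The same 7 members had all 3 NETs-treated libraries above all 3 control libraries, a pattern held by 29.9% of tested genes. The median log2 fold change was 0.37 over the 10 members and -0.02 over all tested genes. Summed over the 10 members, the level was 2400, 2478 and 2519 CPM in the NETs-treated libraries and 1624, 1679 and 1659 CPM in the control libraries, which is 0.240% to 0.252% and 0.162% to 0.168% of the library.

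**Figure D1:**
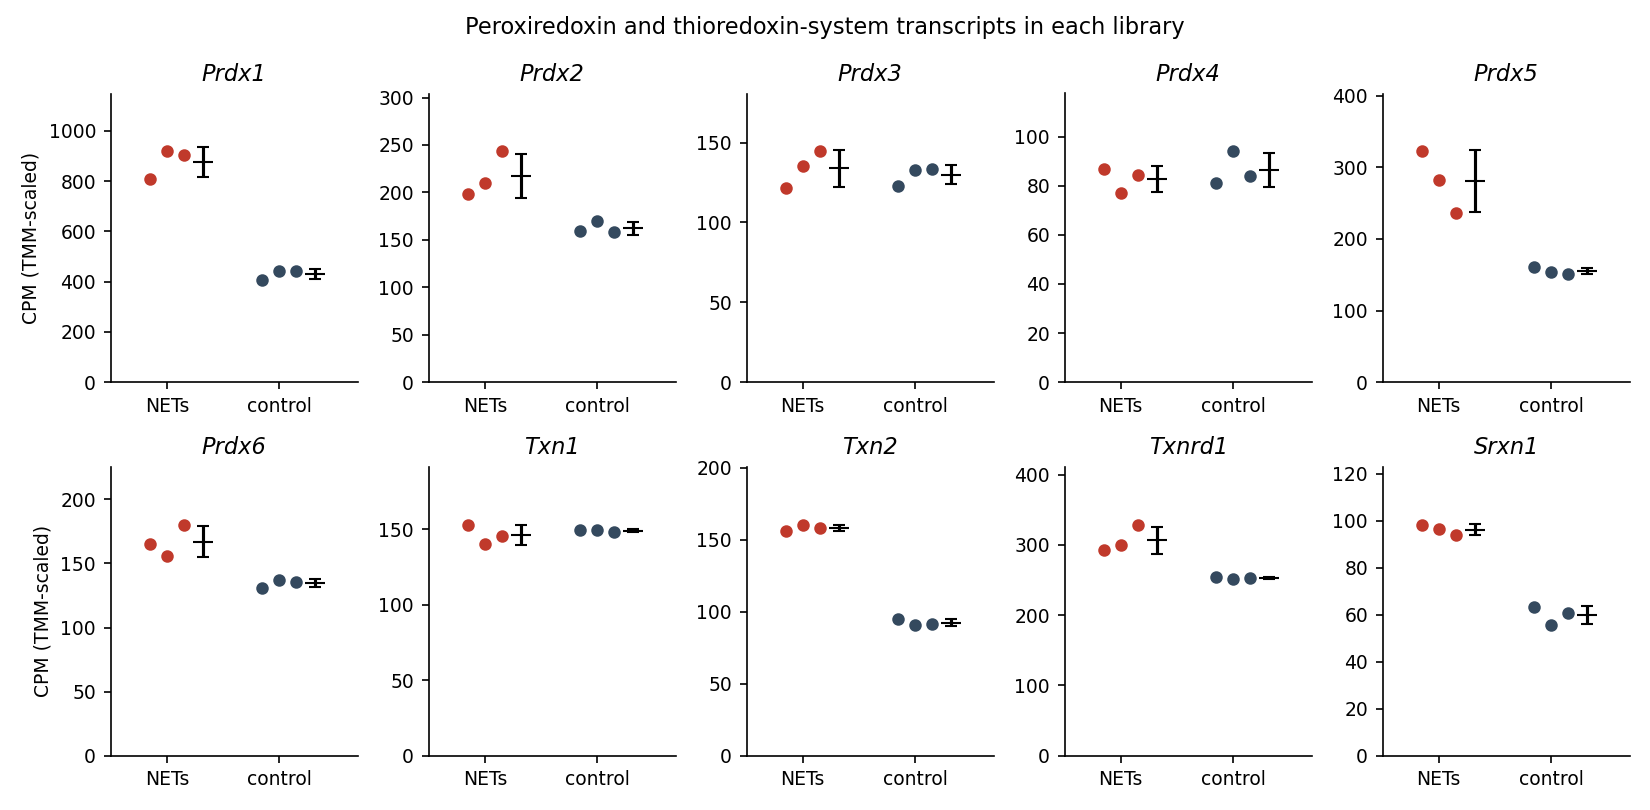
Level of each of the 10 members in CPM, with 1 point per library, NETs-treated libraries left of control libraries, and a black bar with whiskers at each group's mean ± SD (n = 3 each). The groups stand apart in 7 panels and overlap in those of Prdx3, Prdx4 and Txn1.

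Prdx1, an abundant peroxiredoxin of the cytosol and nucleus, lies on the plus strand of chromosome 4 (GRCm38, chr4:116685544-116700822). It had the largest change of the 10, except with the GC content correction given below for Prdx5. Its level was 807.1, 919.3 and 904.4 CPM in the NETs-treated libraries and 407.2, 443.3 and 443.5 CPM in the control libraries. The groups were far apart, the lowest NETs-treated library lying well above the highest control. The fold change was 2.03 (95% interval 1.82 to 2.28), a log2 value of 1.02 ± 0.07 (SE, n = 3 each) with an adjusted p of 8.95e-06 by edgeR. That fold change is at percentile 90.7 of all tested genes. Prdx1 has 3 near-identical copies elsewhere in the genome, which are listed as genes of their own and could take some of its reads. The closest with reads, Gm21399, is 98.3% identical over 597 bases and held 1137 counts in the NETs-treated and 566 in the control libraries. In all, the copies held 1.07% as many counts as Prdx1 itself.

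Prdx2, the other typical cytosolic peroxiredoxin and the one known from red blood cells, lies on the plus strand of chromosome 8 (chr8:84969587-84974834). It rose less than Prdx1, with 197.9, 210.3 and 243.4 CPM in NETs-treated against 158.9, 169.7 and 157.9 CPM in control libraries. The groups did not overlap, and the third NETs-treated library was the highest. The log2 fold change was 0.42 ± 0.09 (adjusted p = 0.00359, edgeR), or 1.34-fold with a 95% interval of 1.17 to 1.54, an interval that lies wholly below that of Prdx1. Its 2 near-identical copies held next to no reads (0.0357% of its counts). Part of its exon sequence overlaps Rnaseh2a (177 bases) and Junb (173 bases) on the opposite strand. Rnaseh2a was at 53.0 CPM in NETs-treated and 45.0 CPM in control cells, and the level of Junb was not obtained here. Whether the counting used strand is not given, so reads of such genes in its count cannot be told apart.

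Prdx5, an atypical peroxiredoxin found in mitochondria, peroxisomes and the cytosol, lies on the minus strand of chromosome 19 (chr19:6906697-6910106) and had the next largest change after Prdx1. Its level with NETs was 322.5, 283.0 and 236.1 CPM, and that of the controls 160.2, 154.3 and 151.1 CPM. The groups were separate, but the NETs-treated libraries were spread widely, with an SD of 43.3 CPM about a mean of 281 CPM, the largest spread of any member on the log2 scale. The fold change was 1.81 (95% interval 1.52 to 2.14), with a log2 value of 0.85 ± 0.11 and an adjusted p of 0.000242 by edgeR. Prdx5 has the highest GC content of the members (58.3% of its transcript). With each library corrected for a trend with GC content, an alternative chosen after seeing the data, its log2 fold change was 0.99 ± 0.06. That of Prdx1 was then 0.88 ± 0.05, so with this correction Prdx5 had the largest change of the members. Of its exon bases, 409 (19.1%) are shared with Trmt112 on the opposite strand. Trmt112 itself was at 40.5 CPM in NETs-treated and 37.9 CPM in control cells, and the strand setting of the counting is not given in the sources used here.

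Prdx6, which uses 1 cysteine and is restored by glutathione rather than by thioredoxin, lies on the minus strand of chromosome 1 (chr1:161240112-161251219). It had 165.0, 156.0 and 180.2 CPM in NETs-treated and 131.0, 137.2 and 135.7 CPM in control libraries. The groups did not overlap, and the change was small, at 1.24-fold (95% interval 1.11 to 1.39, adjusted p = 0.00691, edgeR). Its close copy Prdx6b had no read in any library.

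Prdx3 and Prdx4 did not pass the test. Prdx3, the peroxiredoxin of the mitochondrial matrix (chr19:60864051-60874556, minus strand), was at 121.5, 135.4 and 144.6 CPM in NETs-treated and 123.0, 132.9 and 133.5 CPM in control libraries. The groups overlapped, and the fold change of 1.03 had a 95% interval of 0.906 to 1.17 (adjusted p = 0.674, edgeR). Prdx4, the peroxiredoxin of the endoplasmic reticulum (chrX:155323918-155340754, minus strand), was at 86.97, 77.04 and 84.25 CPM in NETs-treated and 80.93, 94.02 and 84.12 CPM in control libraries. Its groups overlapped as well, with a fold change of 0.958 (95% interval 0.838 to 1.10, adjusted p = 0.574, edgeR). For both genes the interval lies wholly below those of Prdx1 and Prdx5.

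**Figure D2:**
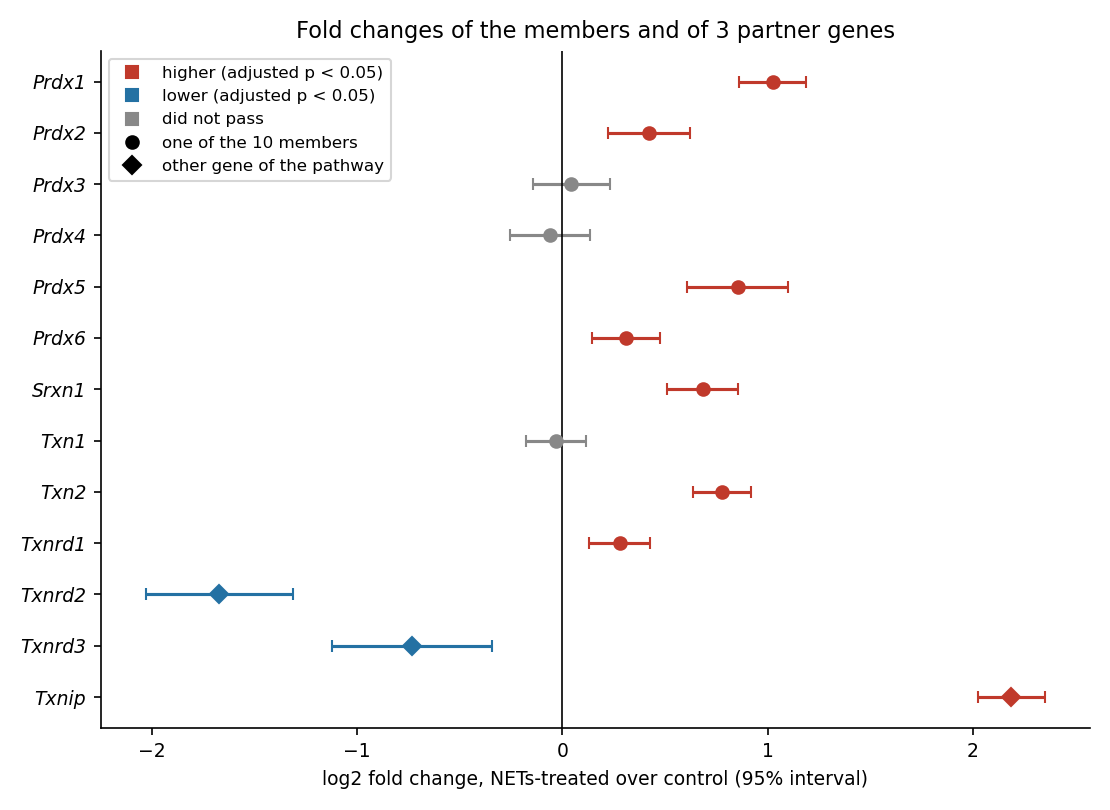
Log2 fold change, NETs-treated over control, with its 95% interval for the 10 members (circles) and for Txnrd2, Txnrd3 and Txnip (diamonds), coloured by call. Prdx1 lies at 1.02, the intervals of Prdx3, Prdx4 and Txn1 span 0, and Txnrd2 and Txnip lie furthest out, at -1.67 and 2.19.

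Of the thioredoxins, Txn2 was higher in NETs-treated cells and Txn1 did not pass the test. Txn2, the mitochondrial thioredoxin (chr15:77915047-77929006, minus strand), stood at 155.8, 160.4 and 158.4 CPM in NETs-treated libraries and 94.95, 90.54 and 91.61 CPM in control libraries. Both groups were tight and far apart, and the fold change was 1.71 (95% interval 1.55 to 1.89, adjusted p = 1.95e-05, edgeR). Txn1, the cytosolic thioredoxin (chr4:57943373-57956411, minus strand), was at 153.1, 140.2 and 145.4 CPM in NETs-treated and 149.8, 149.5 and 148.5 CPM in control libraries. Its groups overlapped, and its fold change of 0.979 had a 95% interval of 0.886 to 1.08 (adjusted p = 0.716, edgeR). Per kilobase of transcript, the level of Txn2 was 0.556 ± 0.0325 of that of Txn1 in NETs-treated and 0.317 ± 0.00731 of it in control cells (SD, n = 3 each). With the lengths of all annotated exons, these ratios were 0.271 ± 0.0158 in NETs-treated and 0.154 ± 0.00358 in control cells. The close Txn1 copy Txn-ps1 had no read in any library.

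Txnrd1, the cytosolic thioredoxin reductase (chr10:82833951-82897712, plus strand), was modestly higher in NETs-treated cells. Its level was 292.3, 299.8 and 328.8 CPM in the NETs-treated libraries and 254.4, 252.0 and 252.3 CPM in the controls. The control libraries lay within 3 CPM of each other, and every NETs-treated library was above them. The fold change was 1.21 (95% interval 1.09 to 1.35, adjusted p = 0.00681, edgeR). The mitochondrial reductase Txnrd2, which is no member, went the other way, with 11.59, 9.004 and 7.891 CPM in NETs-treated and 33.33, 27.63 and 29.74 CPM in control libraries. Its groups were widely separate, and its log2 fold change was -1.67 ± 0.16 (adjusted p = 4.81e-05, edgeR). Txnrd3, a reductase best known from testis and named after its values were seen, was also lower, at 6.459 ± 1.196 CPM in NETs-treated and 10.7 ± 0.299 CPM in control cells (SD, n = 3 each). The ratio of Txnrd1 to Txnrd2, per kilobase of transcript, was 14.4, 19.1 and 23.9 in NETs-treated libraries and 4.37, 5.22 and 4.86 in control libraries. Both reductases are selenoproteins, and their catalytic selenocysteine is read from a TGA codon just before the end of the coding sequence. The last codons follow, with that TGA in capitals, at codon 498 of Txnrd1 and codon 526 of Txnrd2.
Txnrd1: ctccagtctggctgcTGAggttaa
Txnrd2: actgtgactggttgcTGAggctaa

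Srxn1, the sulfiredoxin that rescues over-oxidised peroxiredoxins (chr2:152105516-152111376, plus strand), was at 98.28, 96.62 and 93.75 CPM in NETs-treated and 63.42, 55.57 and 60.74 CPM in control libraries. The groups did not overlap, and the fold change was 1.61 (95% interval 1.43 to 1.81, adjusted p = 0.000115, edgeR). Per kilobase of the principal transcript, Srxn1 had the lowest level of the 10 members in both groups.

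Per kilobase of the principal transcript, the order of levels differed between the groups. In NETs-treated cells Prdx1 led at 382 ± 26.6 CPM per kilobase, followed by Prdx5 (222 ± 34.3), Prdx2 (145 ± 15.7) and Txn1 (139 ± 6.17), of which Prdx2 and Txn1 overlapped between libraries. Then came Txnrd1 (92.3 ± 5.80), Prdx3 (90.6 ± 7.86), Prdx4 (83.6 ± 5.18) and Txn2 (77.2 ± 1.13), each overlapping with its neighbour, and then Prdx6 (70.0 ± 5.13) and Srxn1 (34.2 ± 0.815). In control cells the order was Prdx1 (188 ± 9.12), Txn1 (142 ± 0.636), Prdx5 (123 ± 3.66), Prdx2 (108 ± 4.36), Prdx3 (87.8 ± 4.02), Prdx4 (87.2 ± 6.89), Txnrd1 (76.1 ± 0.395), Prdx6 (56.4 ± 1.35), Txn2 (45.1 ± 1.12) and Srxn1 (21.3 ± 1.42), all SD with n = 3. Among the control neighbours only Prdx3 and Prdx4 overlapped between libraries. The levels and their order depend on the length taken. Per kilobase of all annotated exons, the NETs-treated order began with Prdx1 (288), Txn1 (139), Prdx5 (131), Prdx3 (90.6) and Prdx2 (71.2), with Txn1 and Prdx5 overlapping between libraries. The control order on that scale began with Txn1 (142.0) and Prdx1 (141.7), which overlapped, followed by Prdx3 (87.8), Prdx5 (72.6) and Prdx2 (53.2). Srxn1 was then still lowest on average, but overlapped with its neighbour in both groups.

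Within the peroxiredoxin family, Prdx1 took a larger share in NETs-treated cells. Summed over the 6 genes, the level was 994 ± 13.0 CPM per kilobase in NETs-treated and 651 ± 20.4 in control cells (SD, n = 3 each). Prdx1 made up 35.95%, 40.07% and 39.34% of that sum in the NETs-treated libraries and 28.17%, 28.80% and 29.72% in the control libraries, with no overlap. The shares of Prdx3 (9.11% ± 0.682 in NETs-treated, 13.5% ± 0.355 in control cells) and Prdx4 (8.42% ± 0.602 and 13.4% ± 0.657 in the same order) were smaller in every NETs-treated library than in any control library. The share of Prdx5 averaged 22.4% ± 3.73 in NETs-treated and 18.9% ± 1.06 in control cells, and its groups overlapped. With the lengths of all annotated exons, the Prdx1 share was 43.95% ± 2.13 in NETs-treated and 33.4% ± 0.750 in control cells.

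**Figure D3:**
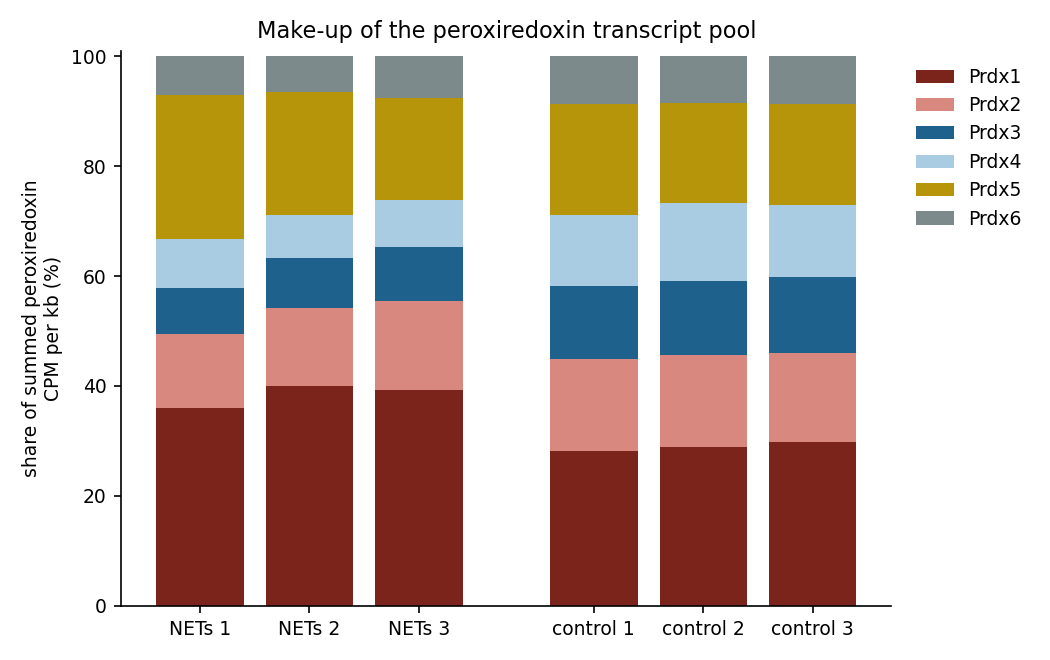
Share of each peroxiredoxin in the summed peroxiredoxin level (CPM per kilobase of transcript, in percent), with NETs-treated libraries left of control libraries. The Prdx1 share is 38.5% on average in NETs-treated and 28.9% in control libraries, while the Prdx3 and Prdx4 shares are smaller in NETs-treated libraries.

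The promoters of 9 of the 10 members were found in the RefSeq promoter table of GRCm38.p6, which gives 250 bases before to 50 bases after a start site, with 3 start sites for Txnrd1. They were searched on both strands for the core of the antioxidant response element, TGACNNNGC, and for the site of the transcription factor AP-1, TGANTCA, whose letters can overlap those of the core. The first was found in Srxn1, Prdx1 and 1 of the Txnrd1 promoters, and in 12.4% of all 32817 promoters of the same length. The AP-1 letters were found in Srxn1 and Prdx1, and in 7.81% of all promoters. The 3 promoters with a core match are shown because all 3 genes were called higher, each on the plus strand with its matches in capitals. Srxn1 is chr2:152105274-152105573, Prdx1 is chr4:116685349-116685648, and Txnrd1 is chr10:82858956-82859255.
Srxn1: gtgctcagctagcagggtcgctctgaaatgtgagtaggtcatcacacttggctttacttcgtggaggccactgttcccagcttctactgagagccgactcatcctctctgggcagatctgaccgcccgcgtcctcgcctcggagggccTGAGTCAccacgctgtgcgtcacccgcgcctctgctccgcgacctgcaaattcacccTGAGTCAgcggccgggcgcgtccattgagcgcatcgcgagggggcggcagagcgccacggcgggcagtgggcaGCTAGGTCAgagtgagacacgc
Prdx1: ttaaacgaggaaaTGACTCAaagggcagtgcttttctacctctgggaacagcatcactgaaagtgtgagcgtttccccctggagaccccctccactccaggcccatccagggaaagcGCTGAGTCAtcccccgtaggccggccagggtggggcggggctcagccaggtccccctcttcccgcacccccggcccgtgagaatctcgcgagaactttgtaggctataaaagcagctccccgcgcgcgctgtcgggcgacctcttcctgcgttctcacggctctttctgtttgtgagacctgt
Txnrd1: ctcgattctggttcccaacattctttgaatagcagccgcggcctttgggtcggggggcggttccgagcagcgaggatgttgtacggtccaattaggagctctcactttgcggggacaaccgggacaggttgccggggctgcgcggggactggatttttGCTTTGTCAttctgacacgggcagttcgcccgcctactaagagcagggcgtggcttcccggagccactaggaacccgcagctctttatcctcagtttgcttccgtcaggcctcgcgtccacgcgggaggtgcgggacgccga
In Srxn1 the core begins 28 bases after the start site, and AP-1 sites begin 102 and 45 bases before it. Only the exact letters were searched for. Near variants of the core, such as TGAGTCAGC at the Srxn1 site 45 bases before the start, were not counted. In Prdx1 the core begins 133 bases before the start site and shares its letters with an AP-1 site, and another AP-1 site begins 237 bases before it. In the Txnrd1 promoter the core begins 92 bases before the start site. A match is a description of letters only, and its bearing on the fold changes was not tested. Neither match was found in these windows for Prdx2, Prdx5 and Txn2, called higher, or for Prdx3, Prdx4 and Txn1, not called.

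Of 27 tested other genes with a thioredoxin fold or a disulfide reductase role, 10 were higher and 6 lower, with a median log2 fold change of 0.13. Txnip, the inhibitor that binds reduced thioredoxin and a known glucose-responsive gene, rose most. Its NETs-treated libraries stood at 588.6, 592.7 and 590.6 CPM, against 140.5, 122.0 and 126.5 CPM for control libraries. The groups were far apart, with a fold change of 4.56 and a log2 value of 2.19 ± 0.07 (adjusted p = 2.3e-07, edgeR). The ratio of Txn1 to its inhibitor Txnip, per kilobase of transcript, was 0.658 ± 0.0315 in NETs-treated and 3.07 ± 0.216 in control cells (SD, n = 3 each). Gm15441, on the opposite strand, shares 606 exon bases with Txnip and was at 30.5 CPM in NETs-treated and 6.27 CPM in control cells. Sesn2, a stress-induced sestrin, fell most, to 22.0 ± 0.692 CPM in NETs-treated against 78.2 ± 3.52 CPM in control cells. Gsr, the glutathione reductase that serves the parallel glutathione pathway, rose to 208 ± 5.10 CPM in NETs-treated against 158 ± 5.52 CPM in control cells (adjusted p = 0.000813, edgeR). Txndc16, a thioredoxin-domain gene, fell by 1.18 on the log2 scale.

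The list of thioredoxin clients was broad and takes in related enzymes. Of its 10 tested genes 6 were lower and none was higher, with a median log2 fold change of -0.46. The 6 include a small ribonucleotide reductase subunit, Rrm2b. Not every product on the list is therefore one that thioredoxin itself reduces or binds. Msrb3, a methionine sulfoxide reductase named after its values were seen, was called higher by DESeq2, by limma-voom, in the authors' deposited table and without control replicate 2. It was near the limit of detection, at 0.575 ± 0.283 CPM in NETs-treated and 0.0990 ± 0.105 CPM in control cells. The methionine sulfoxide reductase Msra had a log2 fold change of -1.38 ± 0.28, the DNA repair and redox factor Apex1 -1.22 ± 0.23, the ribonucleotide reductase subunit Rrm2b -0.95 ± 0.18 and the thioredoxin-bound stress kinase Map3k5 -0.68 ± 0.13 (SE, n = 3 each).

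The other enzymes that remove peroxide and superoxide were mixed, with 1 higher and 4 lower among 7 tested and a median log2 fold change of -0.31. Sod2, the mitochondrial superoxide dismutase, whose product is the peroxide that Prdx3 and Prdx5 consume, stood at 295.8, 284.2 and 299.7 CPM in NETs-treated and 57.23, 50.54 and 54.64 CPM in control libraries. Its groups were far apart, with a log2 fold change of 2.44 ± 0.07 (adjusted p = 1.76e-07, edgeR). Gpx4, which reduces lipid peroxides, fell to 136 ± 7.56 CPM in NETs-treated against 202 ± 4.84 CPM in control cells. Ccs, the copper chaperone of Sod1, had a log2 fold change of -0.95 ± 0.26, and Park7, a redox-sensitive chaperone, -0.67 ± 0.22 (SE, n = 3 each). Without NETs-treated replicate 2 only 1 gene of this list was called lower, and without control replicate 1 or control replicate 2 there were 2; the calls of Ccs (without NETs-treated replicate 2 or control replicate 1) and of Park7 (without NETs-treated replicate 2 or any control replicate) were among those lost. The call of Park7 was also lost with no filter on low counts and in the authors' deposited table.

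On the producing side, 2 of 8 tested NADPH oxidase genes were higher and 4 lower, with a median log2 fold change of -0.36. The catalytic subunit Cybb fell to 140 ± 14.9 CPM in NETs-treated against 456 ± 21.7 CPM in control cells. The organiser Ncf1 fell to 49.7 ± 12.1 CPM in NETs-treated against 288 ± 10.9 CPM in control cells. The smaller membrane subunit Cyba and the cytosolic subunit Ncf4 were lower, at -0.69 and -0.54 on the log2 scale, while the GTPase Rac2 was higher, at 0.32.

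Of 9 tested genes that make up or regulate NRF2, 4 were higher and 2 lower, with a median log2 fold change of -0.07. Nfe2l2, which encodes NRF2, rose to 282 ± 13.3 CPM in NETs-treated against 201 ± 4.72 CPM in control cells (adjusted p = 0.000295, edgeR). Keap1, which targets NRF2 for degradation, fell to 19.9 ± 5.195 CPM in NETs-treated against 33.7 ± 4.08 CPM in control cells (adjusted p = 0.00736, edgeR). The small MAF partners Mafk and Maff and the repressor Bach1 were higher, with log2 fold changes of 1.15, 0.98 and 0.79, and Sqstm1, a receptor for autophagy that binds KEAP1, was lower at -0.28. The call of Sqstm1 was lost without NETs-treated replicate 2, without control replicate 1 and without control replicate 2, which leaves 1 gene of this list called lower each time.

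The known NRF2 targets outside the members did not move as one group, with 5 higher and 9 lower among 17 tested and a median log2 fold change of -0.34. Slc7a11, the cystine importer, had the largest rise, to 649 ± 81.3 CPM in NETs-treated against 229 ± 10.9 CPM in control cells, and Esd, an esterase that acts on a glutathione conjugate, had a log2 fold change of 1.06 ± 0.06. Hmox1, the heme oxygenase and a classic NRF2 target, fell to 133 ± 22.3 CPM in NETs-treated against 328 ± 9.53 CPM in control cells. Hmox1 was named after its values were seen. Ephx1, a detoxifying epoxide hydrolase, and Osgin1, an oxidative stress-induced growth inhibitor, fell by 2.64 and 1.95 on the log2 scale. Gsta3, a glutathione transferase, was near the limit of detection, at 0.218 ± 0.189 CPM in NETs-treated and 1.30 ± 0.0783 CPM in control cells, and its call was lost without NETs-treated replicate 2, without each control replicate and with no filter on low counts.

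**Figure D4:**
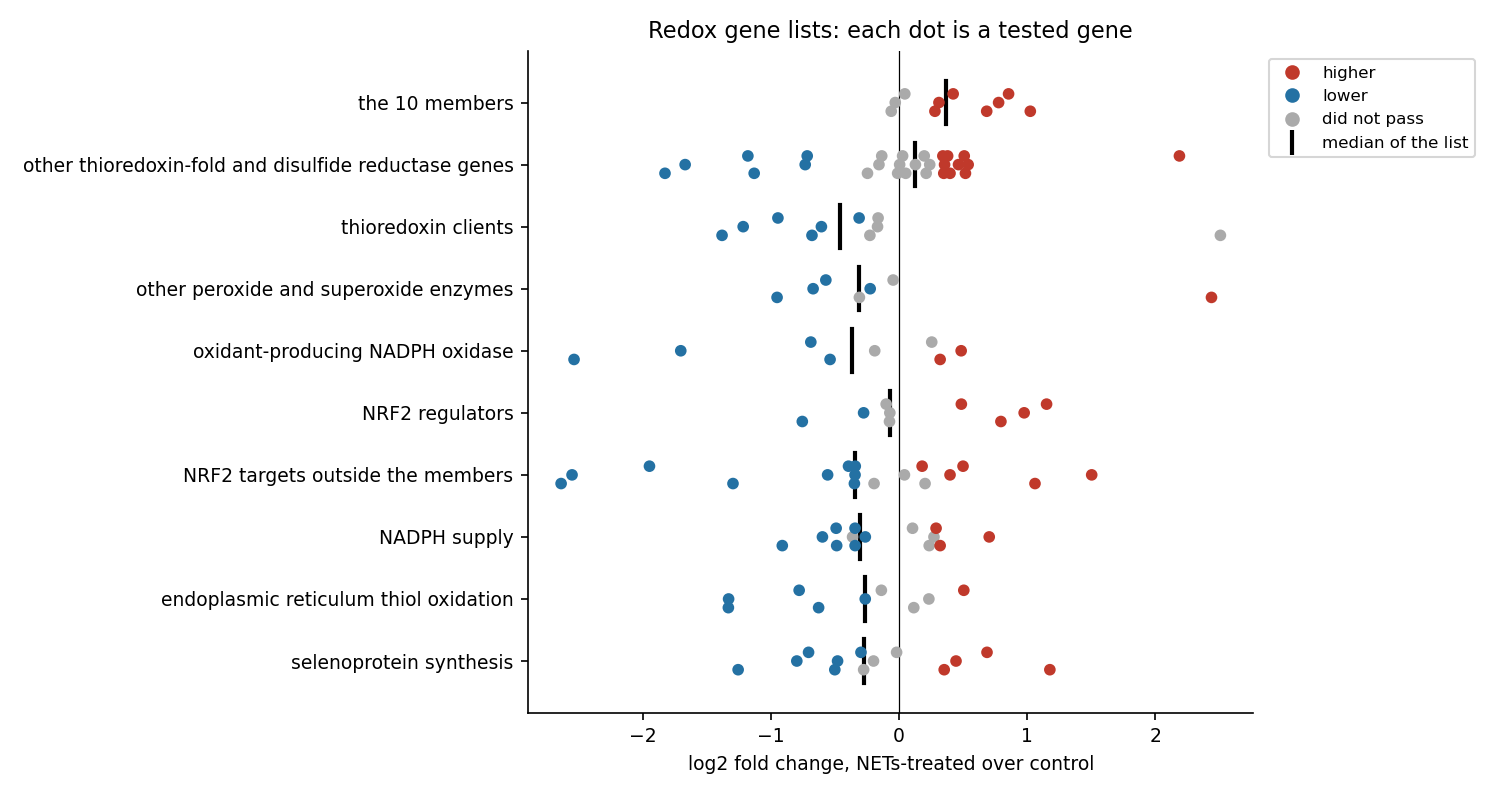
Log2 fold change, NETs-treated over control, of every tested gene in the 10 redox lists, coloured by call, with a black bar at the median of each list. The members have a median of 0.37 and no gene called lower, while the medians of 8 of the other 9 lists lie below 0.

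NADPH, the electron source of both reductases, comes from several enzymes, and of 14 tested genes of its supply 3 were higher and 7 lower (median log2 fold change -0.30). The kinase Nadk, which makes NADP, was higher at 0.70 and the pentose phosphate enzyme Taldo1 at 0.32, while Idh2 of the mitochondria (-0.91), the transketolase Tkt (-0.60) and the mitochondrial transhydrogenase Nnt (-0.49) were lower. The call of Nnt was lost without NETs-treated replicate 2 and without control replicate 2. In the endoplasmic reticulum, where Prdx4 works beside the disulfide-forming enzymes, 1 of 9 tested genes was higher and 5 were lower (median -0.26). The disulfide isomerases Pdia6, Pdia4 and Pdia3 had log2 fold changes of -1.33, -1.33 and -0.78, and the oxidase Ero1lb had -0.63. The call of Vkorc1, the vitamin K epoxide reductase, at 0.50, was lost without NETs-treated replicate 2 and without control replicate 2; without NETs-treated replicate 1, 3 genes of the list were higher.

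The reductases need selenium, and of 13 tested genes for selenoprotein synthesis or other selenoproteins 4 were higher and 6 lower, with a median log2 fold change of -0.28. Selenon, a selenoprotein of the endoplasmic reticulum, rose to 267 ± 11.8 CPM in NETs-treated against 118 ± 1.45 CPM in control cells, and Sephs1, a homologue of selenophosphate synthetase, was higher at 0.69. Selenos, of the endoplasmic reticulum, and Selenop, the secreted selenium carrier, were lower, with log2 fold changes of -1.26 and -0.80. Trnau1ap, which binds the selenocysteine tRNA, was at -0.71, a call lost without NETs-treated replicate 2, control replicate 2 or control replicate 3.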

How the data were processed

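RNA-seq was analysed in 3 NETs-treated and 3 control samples, the only groups. The authors deposited a table of read counts per gene for 55401 genes, with counts divided by a size factor per library (a normalized signal), log2 fold changes and adjusted p-values of their own comparison; the p-values and log2 values of that deposited table were used only as an alternative. Per the labels' protocols the libraries were strand-specific, and per the submitters' processing notes HISAT2 and DESeq2 were used with the builds mm10 and rn6, with no role given. Which program counted the reads, whether it used strand, and which annotation it read are not given in the sources here. Of the gene identifiers 54349 occur with their version in GENCODE M21, which gave coordinates, transcripts and lengths; every column of values matched a sample.

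The deposited counts were tested with edgeR 4.0.16 (R 4.3.3): trimmed-mean scaling, filterByExpr by group (count minimum 10, total 15), which kept 15272 genes holding 99.9% of reads, the quasi-likelihood test without covariates, and Benjamini-Hochberg adjustment over all of them at 0.05. The biological coefficient of variation was 18.5%. Levels are CPM (edgeR), and per kilobase of the principal GENCODE transcript where genes are compared. Replicates differed by more than sampling noise (chi-square per gene 9.89 to 78.3), and each sample was counted once. Such a spread can also be technical, so it does not show that the samples are separate cultures. The test was checked on simulated data with known changes. It called 67.3% of 98 genes changed 2-fold, 35.7% of 98 changed 1.5-fold and 0.0749% of 14693 unchanged genes. Far fewer genes were changed there than were called in the real data. Near-identical copies were sought with blastn 2.17.0 (at least 90% identity over 200 bases).

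The members and the gene lists were chosen with earlier results of these data known. All members and Txnip, Txnrd2, Gsr, Nfe2l2, Keap1 and Sesn2 were named, with up to 4 called genes of largest change in each list and up to 2 that moved against its majority; other names are marked, and some items that this rule or the checks took in are not reported here. Ero1a and Ero1b are listed as Ero1l and Ero1lb. Gsr and Me1 stand in 2 lists each. Alternatives were other scalings, DESeq2 1.42.0, limma-voom 3.58.1, other filters, the replicate block, leaving out each sample, the authors' table and, chosen after seeing the data, a GC content correction and exon-union lengths.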

Additional observations from a re-analysis of the deposited data

How the results depend on the processing

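The counts of 7 members higher and 0 lower were the same in all 16 alternatives. The 7 called members stayed past the threshold in each, with log2 fold changes of 0.88 to 1.10 for Prdx1, 0.76 to 0.99 for Prdx5, 0.70 to 0.87 for Txn2, 0.61 to 0.77 for Srxn1, 0.34 to 0.51 for Prdx2, 0.24 to 0.38 for Prdx6 and 0.20 to 0.33 for Txnrd1. The 3 uncalled members lay so near 0 that their sign changed: Prdx3 was -0.0306 with scaling by library size only, -0.0174 with the GC content correction (chosen after seeing the data) and -0.0056 to 0.1305 leaving out 1 replicate; Txn1 was 0.0013 with the filter of 1 CPM in 3 samples and -0.0434 to 0.0168 leaving out 1 replicate; Prdx4 was -0.1079 to 0.0053 leaving out 1 replicate. Scaling by library size only put the median of all genes at -0.09 in place of -0.02. Over all genes 3265 to 4181 were higher and 3451 to 4636 lower. Thioredoxin clients called higher numbered 1 by DESeq2's Wald test, by limma-voom and in the authors' deposited table, and 0 to 1 leaving out 1 replicate; other peroxide and superoxide enzymes called lower numbered 1 to 5, NRF2 regulators called lower 1 to 2 (4 with the GC content correction) and genes of endoplasmic reticulum thiol oxidation called higher 0 to 3. The cause of these changes was not tested. Of 48 other named genes 40 kept their call and direction in every alternative run for them (Pdia6 had no GC content value), and none reversed. No filter on low counts cost Park7 and Gsta3 their calls. With the replicate number as a block 3896 genes were higher and 4209 lower, with 7 and 0 members. Samples with the same number correlated at 0.124, 0.0271 and 0.0671 in their deviations, and the other pairs at -0.0883 to 0.0261. Each sample thus correlated best, though weakly, with the one of its own number. Whether samples of the same number belong together is not stated and was not tested. At low counts, such as those of Gsta3 and Msrb3, the values rest on few reads.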

Other observations

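The members varied less between samples of a group than most genes did. The median SD of log2 CPM was 0.0965 over the members in NETs-treated and 0.0502 in control cells, beside 0.198 and 0.118 over all tested genes in the same order; the members are more abundant than most genes, and abundance was not matched. Among all tested genes, Txn2 stood at percentile 1.64 of SD in NETs-treated cells, while Txn1 and Txnrd1 stood at percentiles 0.570 and 0.714 in control cells. Prdx5 was the exception, at percentile 55.6 in NETs-treated and 14.05 in control cells. Relative to Txn1, the level of Prdx1 per kilobase of transcript was 2.76 ± 0.305 in NETs-treated and 1.32 ± 0.0683 in control cells (SD, n = 3 each), and with the lengths of all annotated exons 2.08 ± 0.230 and 0.998 ± 0.0514 in the same order.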
